A study of Mus musculus with 2 samples.

Results

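Neutrophils and monocytes find sites of injury through receptors on their surface, and the 6 receptor genes described here are Fpr1, Fpr2, C5ar1, C3ar1, Ltb4r1 and Ptafr. They were taken by name from the 11691 genes of the count table. Fpr1 and Fpr2 encode formyl peptide receptors, C5ar1 and C3ar1 the receptors for the complement fragments C5a and C3a, Ltb4r1 the high-affinity receptor for the lipid leukotriene B4, and Ptafr the receptor for platelet-activating factor, another lipid. All are G protein-coupled receptors of leukocytes. Formyl peptides are released by bacteria and by the mitochondria of broken cells, complement fragments are cleaved from plasma proteins, and leukotriene B4 and platelet-activating factor are made by leukocytes themselves. Signals from these receptors run mainly through inhibitory G proteins to phosphoinositide 3-kinase and Rac, which steer migration and prime the oxidative burst, and receptor kinases, arrestins and RGS proteins end them.

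The cells were sorted blood myeloid cells of C57BL/6 mice. All mice had undergone a transient block of the middle cerebral artery at its proximal end, a model of ischemic stroke, 24 h earlier. Aged mice were 18 to 24 months old and young mice 2 to 4 months. Cells positive for CD11b, both with and without Ly6G, were sorted, and each age gave 1 library of the 10x 3′ v2 kit. Values are UMIs, counts of distinct captured transcript ends, summed over the cells of a population label given by the authors and divided by that population's total to give CPM (UMIs per 1000000 UMIs). The aged library held 3944 cells with 13752454 UMIs and the young library 1849 cells with 6440664 UMIs, and removal of likely doublets left 3820 and 1822 cells. With 1 library per age there is no replicate check and no test, so every difference compares these libraries and not ages. All intervals given are 95% intervals of counting error alone. A gene was called higher or lower where aged and young CPM differed at least 1.5-fold.

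In each library the markers of neutrophils, of monocytes and of NK cells summed highest in the authors' label of that name. A summed 421820 CPM of aged and 333947 CPM of young neutrophils came from 8 neutrophil markers, none of them at 0 in either library. In monocytes 8 monocyte markers summed to 18522 and 22765 CPM in the aged and young library, and the neutrophil markers to 34113 and 23943 CPM. In NK cells 8 NK markers, none at 0, summed to 17985 CPM in the aged and 18428 CPM in the young library, and the neutrophil markers to 29896 and 11299 CPM. NK cells do not make neutrophil transcripts, so 58 aged and 70 young NK cells serve below as a guide to background UMIs, with few UMIs of each member. Cells labelled Fol B-cell carried markers of several kinds. Their B cell markers summed to 2704 and 3817 CPM and their C1q macrophage markers to 4063 and 3310 CPM. Dendritic cell markers, a list that holds the MHC class II genes Cd74 and H2-Ab1, summed to 12665 and 14926 CPM. In the young library 7 of the 10 genes of this list were at 0, Cd74 and H2-Ab1 not among them. Of the 7, Clec9a, Xcr1 and Zbtb46 were at 0 in all kept cells of the young library.

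The formyl peptide receptors lie side by side on chromosome 17. On GRCm38 (mm10), GENCODE M21 places Fpr1 from 17876471 to 17883940 on the minus strand and Fpr2 from 17887824 to 17893952 on the plus strand, so they are read away from each other from starts that RefSeq puts 3885 bases apart. Fpr3, a related gene, overlaps Fpr2 on the same strand. Fpr3 is not among the genes of the count table, and how reads from the shared stretch were counted is not given in the sources used here. C5ar1 lies on chromosome 7 from 16246743 to 16259540, next to its relative C5ar2, and C3ar1 on chromosome 6 from 122847138 to 122856161, both on the minus strand. Ltb4r1 lies on chromosome 14 from 55765962 to 55768494 and Ptafr on chromosome 4 from 132564067 to 132582683, both on the plus strand. No other annotated gene overlaps C5ar1, C3ar1, Ltb4r1 or Ptafr.

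The 250 bases before the RefSeq starts are printed for Fpr1 and Fpr2, because both neighbours had ratios of aged over young above 1 in neutrophils, and for C5ar1 and Ltb4r1, because both were near 2-fold higher in the aged monocytes. They come from RefSeq on GRCm38.p6, 5′ to 3′ on the strand of the gene. Capitals mark matches to AGGAAG, the core letters of sites for the myeloid factor PU.1, on either strand. The windows are chr17:17883940-17884189 (minus strand) for Fpr1, chr17:17887574-17887823 (plus) for Fpr2, chr7:16259339-16259588 (minus) for C5ar1 and chr14:55765712-55765961 (plus) for Ltb4r1.
Fpr1: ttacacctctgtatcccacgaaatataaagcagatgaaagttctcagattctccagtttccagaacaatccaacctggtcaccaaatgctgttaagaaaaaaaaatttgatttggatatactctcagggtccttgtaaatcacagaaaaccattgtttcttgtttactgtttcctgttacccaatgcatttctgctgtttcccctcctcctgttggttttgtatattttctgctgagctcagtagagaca
Fpr2: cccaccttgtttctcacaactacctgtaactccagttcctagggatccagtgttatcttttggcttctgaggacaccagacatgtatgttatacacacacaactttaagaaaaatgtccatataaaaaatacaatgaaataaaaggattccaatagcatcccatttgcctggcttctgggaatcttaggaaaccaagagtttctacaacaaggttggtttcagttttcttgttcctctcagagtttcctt
C5ar1: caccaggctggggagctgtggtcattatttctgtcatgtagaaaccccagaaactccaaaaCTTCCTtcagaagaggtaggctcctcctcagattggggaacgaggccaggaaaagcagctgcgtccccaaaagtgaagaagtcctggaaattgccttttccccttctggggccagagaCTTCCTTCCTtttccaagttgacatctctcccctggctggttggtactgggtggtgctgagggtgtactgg
Ltb4r1: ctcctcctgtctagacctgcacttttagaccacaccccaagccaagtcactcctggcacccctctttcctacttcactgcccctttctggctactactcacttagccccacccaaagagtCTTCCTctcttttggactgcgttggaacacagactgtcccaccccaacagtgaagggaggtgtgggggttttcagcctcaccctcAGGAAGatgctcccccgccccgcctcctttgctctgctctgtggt
C5ar1 had 3 matches, which begin 189, 71 and 67 bases before its start, and the last of them overlap. Ltb4r1 had 2 matches, beginning 130 and 45 bases before its start. Neither Fpr1 nor Fpr2 had a match in this window. RefSeq starts C5ar1 inside the GENCODE span given above, so most of its window, with all 3 matches, lies within that span. Of 27025 mouse promoters of this length 29.2% had at least 1. Letters for AP-1 (TGANTCA, in 6.87% of promoters) and C/EBP (TTGCNNAA, in 9.55%) were in none of the 4 windows. The windows of C3ar1 and Ptafr held no AGGAAG and no TTGCNNAA, and C3ar1 held 1 TGANTCA, beginning 22 bases before its start. A match is a run of letters only and does not show binding.

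Most Fpr1 and Fpr2 transcripts came from neutrophils. Fpr1 stood at 288 CPM (274 to 303) in 2628 aged and 172 CPM (154 to 191) in 1133 young neutrophils, from 1579 and 348 UMIs. In monocytes Fpr1 stood at 26.5 CPM (22.7 to 30.8) in 932 aged and 16.6 CPM (12.6 to 21.3) in 540 young cells. NK cells had 28.7 CPM (7.82 to 73.4) in the aged and 6.68 CPM (0.169 to 37.2) in the young library, from 4 and 1 UMIs. With so few UMIs, the Fpr1 level of monocytes per UMI was not distinguishable from that of NK cells in either library. Per 100 cells monocytes held 18.2 and NK cells 6.90 Fpr1 UMIs in the aged library, and 11.1 and 1.43 in the young library. Such counts also reflect the larger UMI totals of monocytes. Neutrophils supplied 89.2% of all Fpr1 UMIs in the aged and 84.7% in the young library.

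Fpr2, which also binds the cathelicidin peptide and annexin A1, stood at 548 CPM (528 to 568) in aged and 378 CPM (352 to 406) in young neutrophils. In monocytes it stood at 74.8 CPM (68.2 to 81.8) in the aged and 57.7 CPM (50.1 to 66.0) in the young library. The monocyte level was 2.61 times that of NK cells (1.01 to 9.61) in the aged and 4.32 times (1.18 to 35.9) in the young library. Monocytes supplied 13.6% of all Fpr2 UMIs in the aged and 21.2% in the young library, and neutrophils 85.0% and 77.8%. Neutrophils exceeded monocytes 7.33-fold (6.65 to 8.09) in the aged and 6.55-fold (5.62 to 7.67) in the young library for Fpr2, and 10.9-fold (9.26 to 12.8) and 10.4-fold (7.87 to 13.9) for Fpr1. Conventional dendritic cells (cDC) held 4 and 1 Fpr1 UMIs and 21 and 4 Fpr2 UMIs in 104 aged and 52 young cells.

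C5ar1, the receptor through which C5a recruits and activates myeloid cells, was found in both main populations. Its level was 630 CPM (609 to 651) in aged and 475 CPM (446 to 506) in young neutrophils. In monocytes it was 248 CPM (236 to 260) in the aged and 127 CPM (115 to 139) in the young library. Neutrophils were thus 2.54-fold (2.39 to 2.70) above monocytes in the aged and 3.75-fold (3.35 to 4.20) in the young library. Dendritic cells stood at 34.7 CPM (22.5 to 51.3) in the aged and 25.6 CPM (12.3 to 47.1) in the young library. NK cells had 64.5 CPM (29.5 to 123) in the aged library and 3 UMIs (4.13 to 58.6 CPM) in the young library. The cells labelled Fol B-cell had 139 CPM (98.5 to 191) over 41 aged and 59.6 CPM (16.3 to 153) over 14 young cells. The part of their dendritic cell, C1q, neutrophil and monocyte markers in that level was not tested.

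C3ar1, which encodes the C3a receptor, was at or near 0 in neutrophils, with 2 UMIs in each library. Monocytes had 67 UMIs in the aged and 24 in the young library, 10.5 CPM (8.10 to 13.3) and 6.62 CPM (4.24 to 9.85). The population with the highest C3ar1 was the 42 aged cells that the authors labelled Mast cell, at 293 CPM (195 to 423). A C3ar1 UMI was seen in 42.9% of these cells (27.7% to 59.0%), and they held 26.9% of the C3ar1 UMIs of the aged library while being 42 of its 3820 cells. The same cells had C5ar1 at 847 CPM (673 to 1053), seen in 81.0% of them, and Ltb4r1 at 240 CPM (152 to 361), but only 1 Fpr1 and 4 Fpr2 UMIs. Of their markers, Mcpt8 stood at 3565 CPM, Fcer1a, the alpha chain of the IgE receptor, at 1108 CPM and Ms4a2, its beta chain, at 565 CPM. The list of mast cell and basophil markers held 6 measured genes, Cpa3 and Gata2 among them, and summed to 6095 CPM. Only Cma1, a chymase of tissue mast cells, was at 0. In NK cells Cma1 was the only gene of this list seen, at 330 CPM in the aged and 247 CPM in the young library. Mcpt8 is a protease known from basophils. No young cell had this label, so these values have no counterpart.

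Per UMI, Ltb4r1 was the member found at nearly equal levels in neutrophils and monocytes. It stood at 290 CPM (276 to 305) in aged and 142 CPM (126 to 160) in young neutrophils, and at 262 CPM (250 to 275) in aged and 126 CPM (114 to 138) in young monocytes. The ratio of neutrophils over monocytes was 1.11 (1.03 to 1.19) in the aged and 1.13 (0.973 to 1.31) in the young library. Per 100 cells, which also reflects the larger UMI totals of monocytes, neutrophils held 60.5 and monocytes 180 Ltb4r1 UMIs in the aged library, and 25.4 and 84.3 in the young library. For C5ar1 the same counts were 131 and 170 in the aged and 85.0 and 85.0 in the young library. Dendritic cells followed at 98.7 CPM (77.1 to 124) in the aged and 69.2 CPM (45.6 to 101) in the young library. NK cells had 1 Ltb4r1 UMI in each library.

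Ptafr stood at 66.2 CPM (59.6 to 73.4) in aged and 117 CPM (103 to 133) in young neutrophils. In monocytes it stood at 34.2 CPM (29.8 to 39.0) in the aged and 54.9 CPM (47.6 to 63.1) in the young library. Per UMI, neutrophils were 1.94-fold (1.63 to 2.30) above monocytes in the aged and 2.14-fold (1.76 to 2.59) in the young library. Per 100 cells, which also reflects the larger UMI totals of monocytes, the order was reversed. Neutrophils held 13.8 and monocytes 23.5 Ptafr UMIs in the aged library, and 21.0 and 36.9 in the young library. Dendritic cells had 8 and 4 Ptafr UMIs, and NK cells 0 and 1.

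**Figure D1:**
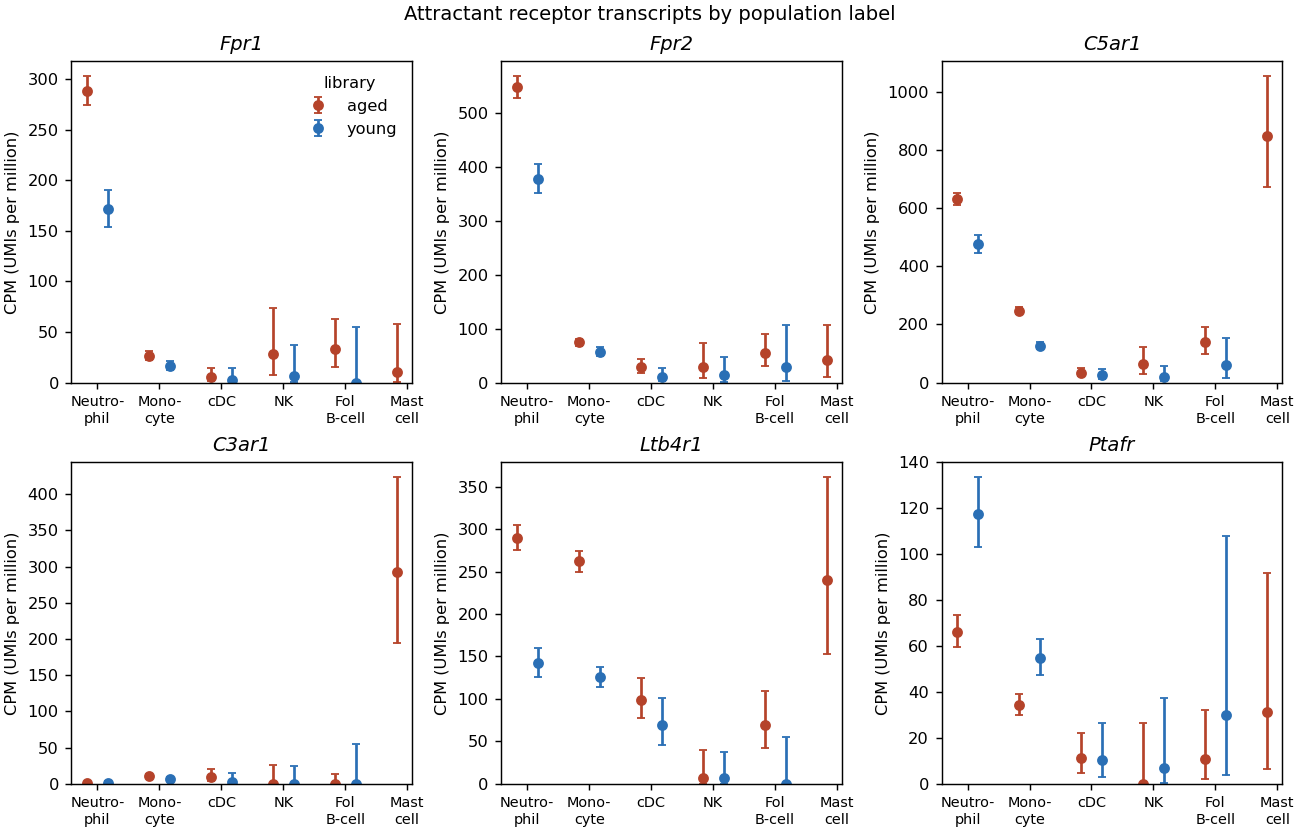
Level of each receptor transcript by the authors' population label, in CPM (UMIs per 1000000 UMIs of the population), with the aged library in red left of the young library in blue and 95% Poisson intervals. Fpr1 and Fpr2 stand high in neutrophils alone, Ltb4r1 stands near 290 and 262 CPM in aged neutrophils and monocytes, and C3ar1 reaches 293 CPM only in the 42 aged cells labelled Mast cell.

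Set side by side between the libraries, Ltb4r1 and Fpr1 were higher in the aged neutrophils and Ptafr was lower. Ltb4r1 had a ratio of aged over young of 2.04 (1.80 to 2.32) and Fpr1 of 1.68 (1.49 to 1.89), the pair called higher. Fpr2, at 1.45 (1.34 to 1.57), and C5ar1, at 1.33 (1.23 to 1.42), were above 1 but under the fold called. Ptafr, at 0.564 (0.478 to 0.667), was called lower. C3ar1, with 4 UMIs in all, had too few for a ratio. So 2 of 5 measured members were called higher and 1 lower, while of 4745 genes with at least 50 UMIs 3.79% were called higher and 20.3% lower.

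The scaling matters in neutrophils. The median log2 ratio of all genes there was −0.24, and with TMM scaling it was 0.07, with 492 genes higher and 331 lower in place of 180 and 962. TMM scaling put Fpr1 at 2.08, Fpr2 at 1.80, C5ar1 at 1.65 and Ltb4r1 at 2.53, so 4 of 5 members were called higher, and Ptafr at 0.70, no longer called. Under total scaling, 44 of the 4745 genes had a ratio as high as that of Ltb4r1 or higher, 111 as high as Fpr1 and 402 as low as Ptafr. A common factor moves all genes alike, so it leaves these ranks and the place of Ptafr below the other members as they are. At a 2-fold call Ltb4r1 was the 1 member higher and 0 were lower, against 1.01% higher and 5.27% lower of all genes.

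In monocytes Ltb4r1 was also the member with the highest ratio, 2.09 (1.88 to 2.32), and C5ar1 was next at 1.96 (1.76 to 2.18). Fpr1 had 1.60 (1.19 to 2.19) and C3ar1 1.58 (0.977 to 2.63), Fpr2 1.30 (1.10 to 1.53) and Ptafr 0.622 (0.511 to 0.758). Of 6 members 4 were called higher and 1 lower, against 5.88% higher and 8.68% lower of 7778 genes, whose median log2 ratio was 0.01. At 2-fold Ltb4r1 was again the 1 member higher, with 0 lower, against 1.38% and 2.08%. Of these 4, Fpr1 was not distinguishable from NK cells in its monocyte level per UMI, and the interval of C3ar1 includes 1. Neutrophil markers in monocytes were 34113 CPM in the aged and 23943 CPM in the young library, and without the monocyte cluster led by Hdc, which carries such markers, the ratio of Fpr1 was 1.45, below the fold called. Without that cluster C5ar1 had 1.94 and Ltb4r1 2.12. The part of neutrophil RNA in the other ratios was not tested. Joint clusters of monocytes divided by library, with 411 of 540 young and 5 of 932 aged cells in the first. Only the cluster led by MHC class II genes, with 108 aged and 102 young cells, held both libraries in number. There the ratio was 2.02 (1.60 to 2.57) for C5ar1 and 2.1 (1.56 to 2.86) for Ltb4r1. A finer clustering, at Leiden resolution 1, gave a cluster led by MHC class II genes with 235 aged and 12 young cells. In it C5ar1 had 1.58 (0.912 to 2.98) and Ltb4r1 1.09 (0.627 to 2.06). Another, led by Ace and Cd300e, held 25 aged and 96 young cells, with 1.65 (1.00 to 2.62) and 2.17 (1.16 to 3.85). In the main clustering, ratios in clusters with few young cells were not all above 1. C5ar1 had 0.438 (0.263 to 0.787) in that led by Ecm1 and Tppp3, with 330 aged and 5 young cells, and Ltb4r1 0.903 (0.535 to 1.66) in that led by Dmkn and Ms4a3, with 339 aged and 7 young cells.

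The ratios of both cell types were also set against each other. The monocyte ratio of C5ar1 was 1.48 times its neutrophil ratio (1.30 to 1.68, counting error only), while the same quotient was 1.02 (0.869 to 1.20) for Ltb4r1, 1.10 (0.858 to 1.42) for Ptafr, 0.894 (0.746 to 1.07) for Fpr2 and 0.955 (0.696 to 1.31) for Fpr1. With TMM scaling the quotient was 1.20 (1.05 to 1.36) for C5ar1, 0.828 (0.704 to 0.975) for Ltb4r1, 0.894 (0.695 to 1.15) for Ptafr, 0.725 (0.605 to 0.868) for Fpr2 and 0.774 (0.564 to 1.06) for Fpr1. Which members stand away from 1 thus depends on the scaling, though C5ar1 had the highest quotient under both. Since each age has 1 library, these differences were not tested.

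**Figure D2:**
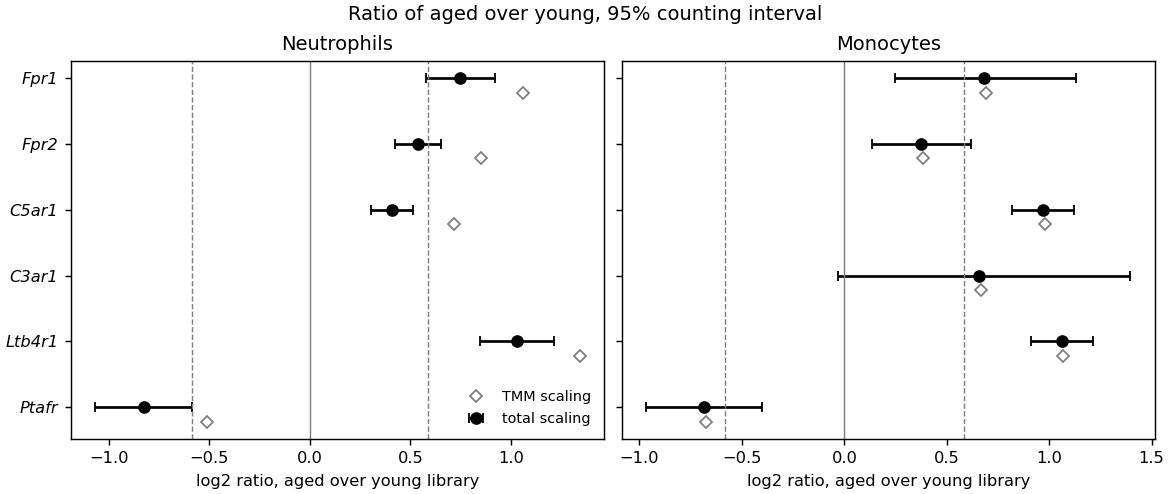
Log2 ratio of aged over young for each member in neutrophils (left) and monocytes (right), black circles with 95% counting intervals under total scaling and open diamonds under TMM scaling. Dashed lines mark 1.5-fold, Ptafr lies left of 0 in both panels, and the other members with a ratio lie right of it.

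**Figure D3:**
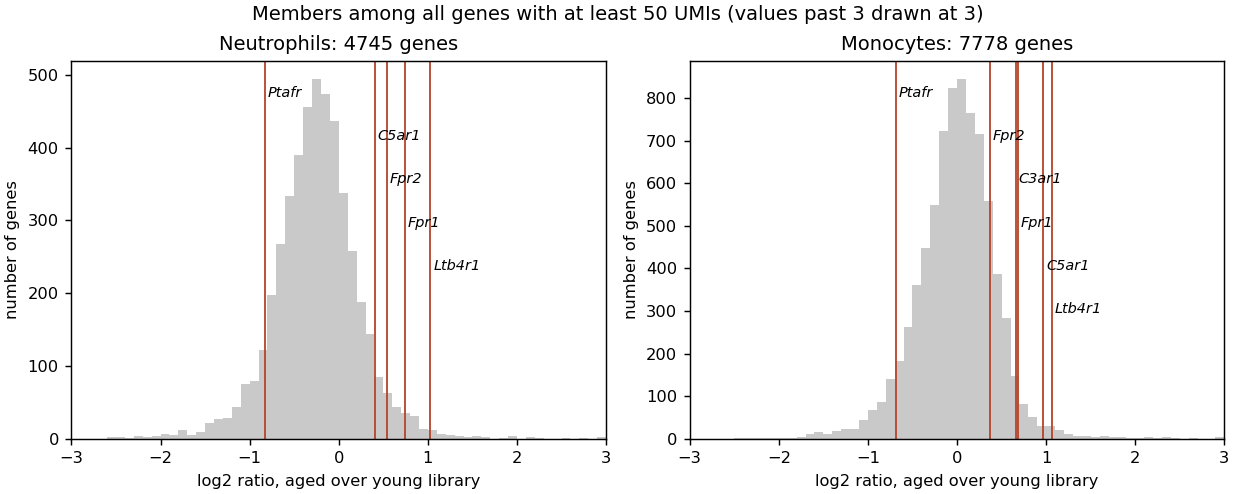
Number of genes (vertical axis) by log2 ratio of aged over young (horizontal axis) for 4745 genes of neutrophils and 7778 of monocytes with at least 50 UMIs, with a red line for each member. Ltb4r1 lies in the upper tail of both, beside C5ar1 in monocytes, and Ptafr in the lower part of both.

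Depth per cell differed, at a median of 1900 UMIs in aged and 1629 in young neutrophils and 6402 and 6607 in monocytes, so each cell was also thinned at random to 500 UMIs, which left out none. An Ltb4r1 UMI was then seen in 13.7% of aged (12.4% to 15.1%) and 6.18% of young neutrophils (4.85% to 7.74%), and without thinning in 40.7% and 19.9%. For Fpr1 the thinned shares were 13% and 8.03% (41.6% and 25.6% unthinned), and for Fpr2 25.1% and 16.4% (63.4% and 44.9%). For C5ar1 they were 26.8% in aged and 21.3% in young neutrophils (68.6% and 55.8% unthinned). Ptafr was seen in 3.08% of aged (2.46% to 3.82%) and 5.30% of young neutrophils (4.07% to 6.76%), and in 12.6% and 18.2% unthinned. The shares lie in the same order between the libraries as the CPM for each of these 5 genes. Both come from the same counts, so the shares are no separate check.

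In 58 aged and 70 young NK cells, with median depths of 2314 and 2001 UMIs, thinned UMIs were few. C5ar1 was seen in 5.17% of aged (1.08% to 14.4%) and 1.43% of young cells, and Fpr1 in 1.72% and 1.43%. Fpr2, Ltb4r1 and Ptafr were seen in 0 of these cells at that depth, and 3 counts over the cells would be shares of 5.17% in the aged and 4.29% in the young library. Without thinning C5ar1 was seen in 10.3% of aged and 4.29% of young NK cells, Fpr1 in 6.90% and 1.43%, and Ltb4r1 in 1.72% and 1.43%.

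Thinned monocytes had a C5ar1 UMI in 11.8% of aged (9.80% to 14.0%) and 5.37% of young cells (3.63% to 7.62%), and without thinning in 72.3% and 48.0%. At 1000 UMIs per cell the C5ar1 shares were 22.4% and 11.9% in monocytes, against 1.72% and 4.29% in NK cells. Ltb4r1 was seen in 11.4% of aged (9.41% to 13.6%) and 4.26% of young thinned monocytes (2.72% to 6.32%), and in 71.7% and 50.7% unthinned. The Fpr1 shares of monocytes were 1.39% and 0.556% at 500 UMIs and 2.36% and 1.85% at 1000 UMIs, where 0 NK cells of either library had one, and 15.2% and 10.0% unthinned. With 0 or 1 NK cells to set the thinned shares against, those were not distinguishable from the NK shares. Fpr2 was seen in 3.33% of aged and 3.52% of young monocytes, so its share did not follow its CPM ratio of 1.30, and no order is read from it. A thinned Ptafr UMI was found in 11 of 932 aged and 9 of 540 young monocytes.

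**Figure D4:**
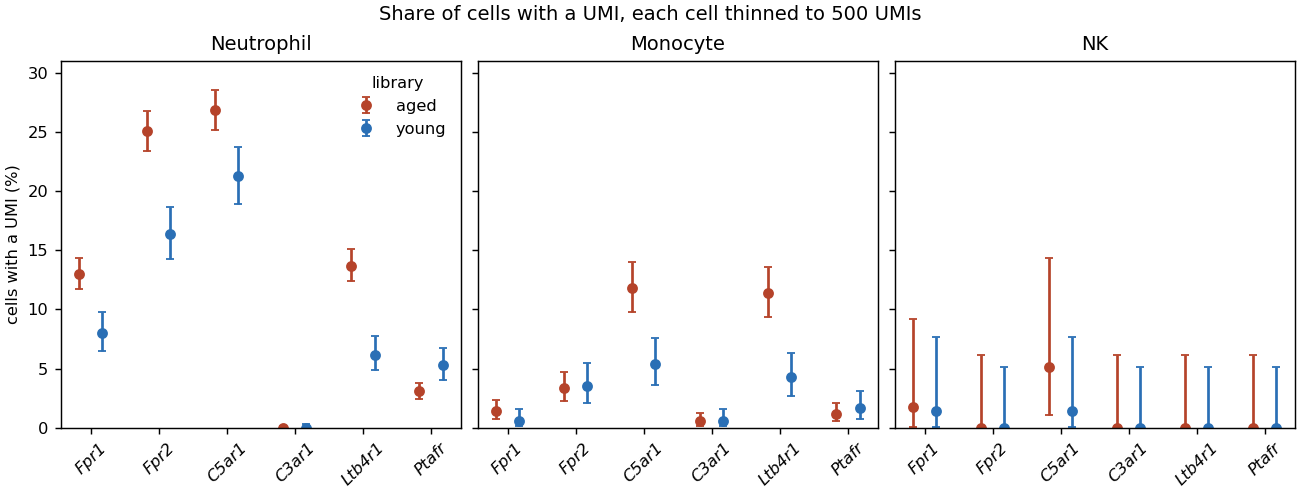
Share of cells with a UMI of each member (percent, vertical axis) after thinning every cell to 500 UMIs, in neutrophils, monocytes and NK cells, with the aged library in red left of the young library in blue and exact binomial intervals. Ltb4r1 reaches 13.7% of aged against 6.18% of young neutrophils, while Ptafr is seen in 3.08% against 5.30%.

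Most neutrophils showed at least 1 of the receptors even at that low depth in the aged library. A UMI of any member was seen in 60.4% of aged and 45.6% of young thinned neutrophils, and UMIs of 2 or more members in 18.3% and 10.2%. In monocytes the shares with any member were 26.7% and 15.6%, and in NK cells 6.90% and 2.86%. Pairs of receptors in the same cell rest on few cells. Among aged neutrophils with an Fpr1 UMI 21.9% also had an Fpr2 UMI, against 25.5% of those without, and among young ones 15.4% against 16.5%. For C5ar1 in cells with and without an Fpr2 UMI the shares were 28.4% and 26.3% in aged and 21.0% and 21.3% in young neutrophils. At 1000 UMIs the Fpr2 shares were 37.6% with and 39.5% without an Fpr1 UMI in aged neutrophils, and 38.1% and 29.8% in young ones, so the order in the young library turned with depth. These are descriptions of sparse counts, with 75 aged and 14 young cells holding both formyl peptide receptors at 500 UMIs, and no order is read from them.

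Neutrophils of each library were also clustered alone, without the member genes, a choice made after joint clusters had divided by library. In both libraries the larger clusters were one with Ngp and Cd177, transcripts of early neutrophils, among its leading genes (1430 aged and 537 young cells) and one with Ccl4, Gm12840 and Fgl2 among them (1133 aged and 577 young cells). Ptafr was lower in the Ngp cluster, at 55.5 against 79.2 CPM in the aged and 86.1 against 151 CPM in the young library, or 0.70 times (0.564 to 0.868) and 0.569 times (0.432 to 0.746) the other cluster's level. C5ar1 was lower there too, with ratios of 0.793 (0.741 to 0.849) in the aged and 0.697 (0.611 to 0.794) in the young library. Fpr2 lay the other way, at 1.09 (1.01 to 1.18) and 1.16 (1.00 to 1.35), and the interval of Fpr1 included 1 in both libraries. For Ltb4r1 the ratio was 0.865 (0.782 to 0.958) in the aged and 1.18 (0.922 to 1.5) in the young library.

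A division of each library's neutrophils into 3 equal parts by their share of UMIs from Camp, Ltf, Ngp, Lcn2, Chil3 and Cd177 gave part of the same picture. Ptafr in the part with the highest share stood at 0.816 (0.626 to 1.06) of its level in the lowest part in the aged and 0.631 (0.449 to 0.881) in the young library. Fpr2 stood at 1.18 (1.08 to 1.29) and 1.16 (0.972 to 1.40). C5ar1, at 1.08 (0.993 to 1.17) in the aged and 0.904 (0.772 to 1.06) in the young library, did not repeat its difference between the clusters. The parts are ranges of a continuous share and not kinds of cell.

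Between the libraries, each of these parts had the direction seen in all neutrophils for all 5 measured members. The parts were cut in each library alone and are not matched in that share. Its medians in the lowest, middle and highest part were 0.495%, 0.853% and 1.30% in the aged and 0.333%, 0.671% and 1.10% in the young library. Ltb4r1 had ratios of aged over young of 1.93 (1.55 to 2.43), 2.17 (1.72 to 2.78) and 2.03 (1.66 to 2.50) in the lowest, middle and highest part. Ptafr had 0.511 (0.384 to 0.682), 0.549 (0.414 to 0.729) and 0.661 (0.484 to 0.911). In the joint clusters, Ptafr was not lower in every cluster. In the one led by Gm10036 and Rps27rt, with 134 aged and 925 young cells, its ratio was 1.01 (0.680 to 1.46), against 0.468 (0.281 to 0.836) in that led by Cxcl3 and Ccl4 and 0.748 (0.454 to 1.30) in that led by Camp and Ngp. These joint clusters divide by library, with 925 of 1133 young neutrophils in the first.

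Monocytes clustered alone in each library differed in C5ar1 and Ltb4r1, in opposite directions. In the cluster led by Cd74 and other MHC class II genes, with Ace among its leading genes, Ltb4r1 stood at 202 CPM in the aged and 87.2 CPM in the young library. In the cluster with Ly6c2, an antigen of classical monocytes, and Dmkn among its leading genes, Ltb4r1 stood at 327 and 144 CPM. The ratio of the first over the second was 0.619 (0.532 to 0.718) in the aged and 0.605 (0.454 to 0.797) in the young library. For C5ar1 that ratio was 1.25 (1.09 to 1.45) and 1.17 (0.925 to 1.49), the young interval including 1. C5ar1 was lowest in the clusters of cycling cells, led by Ccnb2, at 148 CPM over 132 aged and 52.9 CPM over 28 young cells, where Ltb4r1 stood at 287 and 207 CPM.

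C3ar1 was higher in monocytes with C1q transcripts. Monocytes with a UMI of C1qa, C1qb or C1qc, complement genes of macrophages, had C3ar1 at 16.3 CPM in the aged and 17.7 CPM in the young library, against 7.63 and 4.33 CPM in monocytes without one, ratios of 2.14 (1.28 to 3.56) and 4.09 (1.66 to 9.90). These rest on 34 against 33 UMIs in the aged and 11 against 13 in the young library. For Ltb4r1 the same ratio was 0.841 (0.755 to 0.935) in the aged and 0.806 (0.610 to 1.05) in the young library. Monocytes with a C1q UMI were 272 of 932 aged and 81 of 540 young monocytes. In them C3ar1 had a ratio of aged over young of 0.920 (0.455 to 2.01), and in the others 1.76 (0.904 to 3.65). In the cluster of 53 aged monocytes led by Hdc, with Cxcr2, Retnlg and Mmp9 among its leading genes, Fpr1 stood at 70.3 CPM and Fpr2 at 110 CPM, the highest of the aged monocyte clusters. What part neutrophil RNA has in these values was not tested.

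**Figure D5:**
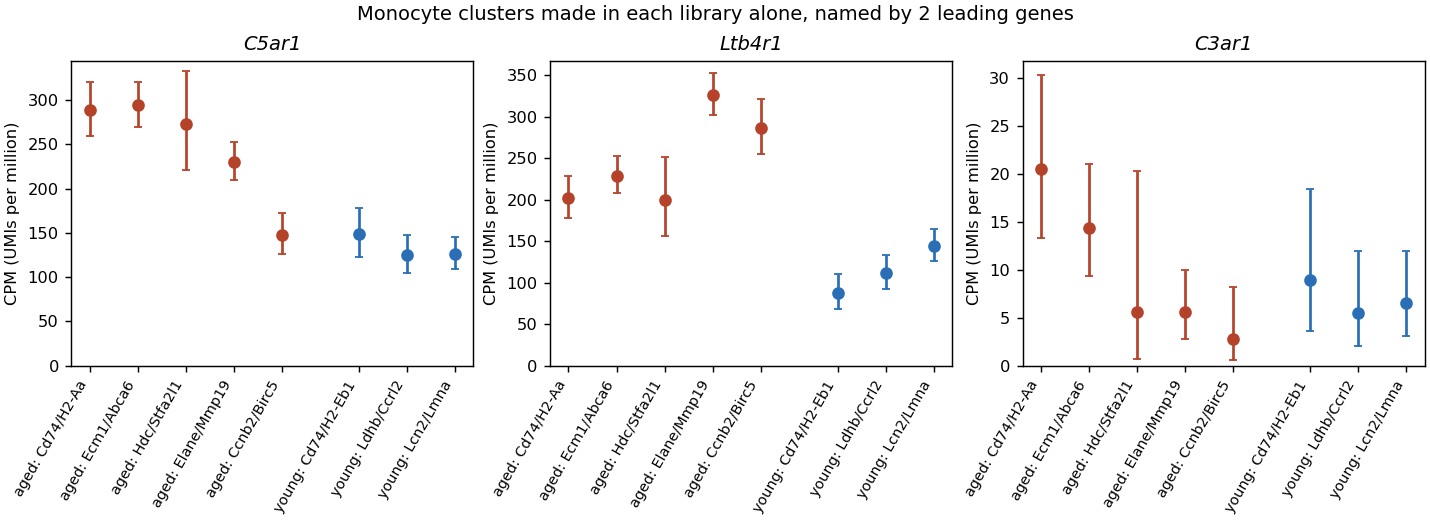
CPM of C5ar1, Ltb4r1 and C3ar1 (vertical axes) in the monocyte clusters of at least 50 cells made in the aged (red, left) and the young library (blue, right), each named by 2 of its leading genes, with 95% Poisson intervals. Ltb4r1 is lowest in the Cd74 cluster of the young library at 87.2 CPM and highest in the Elane cluster of the aged library at 327 CPM, and C5ar1 in the aged library is lowest in the Ccnb2 cluster.

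Over 18 units, made of dendritic and NK cells and of joint neutrophil and monocyte clusters by library, the genes with the most similar levels were named for each member by the correlation of log2(CPM + 1). Closest to Fpr1 were Lrg1 (r = 0.98), Upp1 (0.97) and Klhdc4 (0.97), and to Fpr2 Pygl (0.99), Slc16a3 (0.98) and Lrg1 (0.98). Closest to C5ar1 were Trem3 (0.95), Prdx5 (0.95) and Pilra (0.94). Ltb4r1 was closest to App, Wipi1 and Cib2 (each 0.96) and Ptafr to Plaur, Pilrb2 and Tmem43 (each 0.95). Among the members themselves, Fpr1 and Fpr2 had r = 0.96 and Fpr1 and Ltb4r1 0.50. The units share libraries and cell types, so these values describe this arrangement only. C3ar1, with 101 UMIs in these units, was not ranked.

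Other genes of the pathway were counted from fixed lists, with genes of at least 20 UMIs. By that minimum 5.78% of 6522 neutrophil genes were called higher and 24.8% lower, with a median log2 ratio of −0.26, and of 9325 monocyte genes 7.44% and 11.2%, with a median of 0.00. Because the scaling shifts all neutrophil ratios, the counts of each list with TMM scaling are given beside the main ones. These shares of all genes hold for total scaling and are no background for the TMM counts. With TMM scaling 492 of 4745 neutrophil genes were higher and 331 lower, at the higher minimum used for single genes. The TMM shares at the minimum of the lists are not given here, so the TMM counts of the lists have no matched background. In monocytes TMM scaling changed the count of 1 list, the G protein and Rac genes, to 5 lower. Of 9 related receptors measured in neutrophils 2 were higher, 3 lower and 4 between, with a median of −0.34 (with TMM 2 higher, 3 lower and −0.02). C5ar2, the second C5a receptor and the neighbour of C5ar1, was among the lower ones at a ratio of 0.457 (0.347 to 0.602), with 22.1 CPM in aged and 48.4 CPM in young neutrophils. Ccrl2, which binds chemerin, had 0.335 (0.212 to 0.530), Ffar2, a short-chain fatty acid receptor, 2.43 (1.09 to 6.38) from 46 and 7 UMIs, and S1pr4, a sphingosine 1-phosphate receptor, 1.01 (0.789 to 1.31). In monocytes 1 of 12 was higher and 2 lower, with a median of −0.10, Ptger2 at 1.70 (1.02 to 2.93) and Ptger4 at 0.552 (0.348 to 0.875), both prostaglandin E2 receptors, while Cysltr1 had 1.14 (0.891 to 1.46) and Lpar6 1.26 (0.967 to 1.66).

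Among 15 measured genes that make or remove the ligands in neutrophils, 1 was higher and 1 lower, with a median of −0.04. With TMM 3 were higher and 0 lower, with a median of 0.27. Camp, whose cathelicidin peptide is a ligand of Fpr2 in mice, had a ratio of 5.88 (4.11 to 8.69). Pla2g7, which encodes an enzyme that breaks down platelet-activating factor, was lower at 0.594 (0.540 to 0.654), a call lost with TMM, with 204 CPM in aged and 343 CPM in young neutrophils. Alox5ap, which presents arachidonic acid to 5-lipoxygenase for leukotriene synthesis, had 1.14 (1.12 to 1.17) at 5140 and 4501 CPM, and Anxa1, an Fpr2 ligand, 1.34 (1.29 to 1.40). In monocytes 2 of 18 were higher and 1 lower, with a median of 0.20. Ltc4s, leukotriene C4 synthase, had 3.86 (1.63 to 11.1) from 41 and 6 UMIs, Saa3, a serum amyloid A gene, 1.51 (1.48 to 1.54), and C3, the source of C3a, 0.640 (0.569 to 0.721).

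Genes downstream of the receptors came next, with none called higher. In neutrophils 0 of 31 G protein and Rac genes were higher and 3 lower, with a median of −0.21, and with TMM 0 and 1, with a median of 0.11. Values were, under total scaling, Rac2, the Rac of blood cells, at 0.908 (0.873 to 0.945), Gng5 at 0.784 (0.744 to 0.826), Prkcd at 0.746 (0.647 to 0.862) and Elmo1 at 0.588 (0.422 to 0.824). In monocytes 0 of 33 were higher and 6 lower, with a median of −0.15, among them Gng10 at 0.420 (0.303 to 0.579), Fgr, a Src family kinase, at 0.663 (0.599 to 0.734) and Elmo1 at 0.566 (0.434 to 0.737), while Arhgdib had 1.22 (1.18 to 1.27). Of 13 genes that end the signal, 0 were higher and 5 lower in neutrophils, with a median of −0.49, and with TMM 0 and 2, with a median of −0.17. Under total scaling Rgs2 had 0.620 (0.576 to 0.668) and Rgs3 0.630 (0.540 to 0.735), both regulators that switch G proteins off, and the receptor kinase Grk6 had 0.698 (0.583 to 0.838). In monocytes 0 of 14 were higher and 2 lower, with a median of −0.06. The lower ones were Adrbk2, a receptor kinase, at 0.324 (0.252 to 0.415) and Arrb1, an arrestin, at 0.490 (0.311 to 0.770). Rgs10 had 0.772 (0.707 to 0.844) and Rgs2 1.05 (0.979 to 1.13). Nonclassical monocyte markers summed to 234 CPM in aged and 467 CPM in young monocytes. Adrbk2 was a leading gene of the finer monocyte cluster led by Ace and Cd300e, with 25 aged and 96 young cells. The part of this make-up in the ratio of Adrbk2 was not tested.

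Chemokine receptors, which guide the same cells, gave 0 higher and 4 lower of 6 in neutrophils, with a median of −0.73, and with TMM 0 and 2, with a median of −0.42. In monocytes they gave 0 higher and 1 lower of 6, with a median of 0.18, and Ccr7, the 7th measured, was at 0 in 1 library and has no ratio. In neutrophils Cxcr2 had 0.915 (0.864 to 0.969), Cxcr4 0.510 (0.413 to 0.632) and Ccr2 0.550 (0.412 to 0.737). In monocytes Ccr2 had 0.945 (0.907 to 0.986), Ccr1 1.47 (1.32 to 1.64), Cxcr2 1.47 (1.17 to 1.86) and Cx3cr1 0.339 (0.282 to 0.405). Cx3cr1, like Adrbk2, was a leading gene of the cluster with 25 aged and 96 young cells, whose part in its ratio was not tested. By comparison the 5 measured attractant receptors had a median log2 ratio of 0.54 in neutrophils, and all 6 had one of 0.67 in monocytes. The gap between these lists was not tested.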

How the data were processed

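The deposited table holds raw UMI counts per gene and cell, with a library and a population label for each cell, all made by the authors. Per the submitters' processing notes, Cell Ranger 2.1.1 and mm10 were used. The filters on cells and genes, and whether mice were pooled, are not stated in the labels. The members and lists were chosen with earlier results of these data known. Doublet scores came from scrublet in scanpy 1.11.5. The automatic threshold called 0 aged and 4 young cells, so the highest scores were removed at 8 per 1000 cells for each 1000 cells, 124 aged and 27 young cells. The libraries shared 12 cell barcodes. Sums carry exact Poisson, ratios exact conditional binomial and shares Clopper-Pearson intervals, and quotients of ratios a normal interval on the log scale. Clusters used counts scaled to 10000 and log-transformed, 2000 variable genes, 30 principal components, 15 neighbours and Leiden resolution 0.5, with 1 for the finer clustering. TMM factors came from edgeR 4.0.16. The interval code was checked on simulated counts. Single genes needed 50 UMIs over both libraries and genes of lists 20. Named from each list were the gene with most UMIs and up to 3 whose interval lay farthest from 1. All depth values are counts per library or cell, and PCR copies were already merged by UMI. Alternatives were other scalings, doublet and depth settings, own cluster names, gene minimums and a 2-fold call.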

Additional observations from a re-analysis of the deposited data

How the results depend on the processing

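In neutrophils TMM scaling gave ratios of 2.08 for Fpr1, 1.80 for Fpr2, 1.65 for C5ar1, 2.53 for Ltb4r1 and 0.70 for Ptafr, centring on the median of all genes gave 1.98, 1.71, 1.57 and 2.41 for the first 4, and leaving S100a8, S100a9 and Retnlg out of the total gave 1.93, 1.67, 1.52 and 2.35. Under each of these 3 settings 4 members were higher, and with TMM scaling 0 lower. All genes then split into 492 higher and 331 lower, 382 and 403, and 341 and 475. Thinning to 500 UMIs put Fpr2 at 1.62 in neutrophils and, in monocytes, Fpr2 at 0.898, C5ar1 at 2.36 and Ltb4r1 at 2.70, with 2 members higher and 0 lower of 3 with enough UMIs. Keeping only cells with at least 500 genes and 1000 UMIs put Fpr2 in neutrophils at 1.52, past the fold called. All genes split into 89 and 487 in thinned neutrophils and 248 and 103 in thinned monocytes. With a minimum of 20 UMIs they split into 377 and 1615 in neutrophils and 694 and 1046 in monocytes, with 200 UMIs into 50 and 356, and 181 and 212. At 2-fold 48 and 250 neutrophil and 107 and 162 monocyte genes were called, with 1 member higher and 0 lower in each. The aged minus young share of monocytes with an Fpr2 UMI was 0.024 percentage points at 1000 UMIs, against -0.19 at 500. The shift between scalings follows from their construction; for thinning the cause was not tested. Of the 11 member ratios 10 kept their side of 1 under each alternative that gave a value, the exception being thinned Fpr2 in monocytes. In thinned monocytes Fpr1 and Ptafr had too few UMIs for a ratio, and C3ar1 had 1.16 (0.247 to 7.16) from 6 and 3 UMIs, under the fold called and too few to be counted. No paired analysis was possible because each age has 1 library. Depth limits C3ar1 most.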

Other observations

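Cells labelled Eryth-Neutro, 15 in the aged and 13 in the young library, held 13 and 1 UMIs of C5ar1, 8 and 2 of Ltb4r1, 6 and 2 of Fpr2 and 3 and 1 of Fpr1. Haemoglobin and Alas2 transcripts took 655310 CPM of these cells in the aged and 884631 CPM in the young library, and neutrophil markers 107152 and 14449 CPM.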
